A study of Mus musculus with 6 samples.

Results

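The genes described here are those of the mitochondrial respiratory chain and ATP synthase in sorted pancreatic macrophages, chosen by gene name. They comprise every gene whose name begins with Nduf, Uqcr, Atp5, mt-Nd, mt-Co, mt-Atp or mt-Cytb, or with Cox followed by a digit of the subunit series, plus the succinate dehydrogenase genes Sdha to Sdhd, Cyc1 and Cycs, with names marked as pseudogenes left out. This gave 105 of the 31617 genes in the table, 93 encoded in the nucleus and 12 in the mitochondrial genome. The cells came from wild-type Balb/c mice and were sorted as CD45+CD11b+F4/80+ on days 1, 3, 4, 5 and 7 after the first of 10 hourly caerulein injections, with saline-injected mice as mock (day 0). Caerulein is a cholecystokinin analogue that overstimulates acinar cells and causes acute pancreatitis. The sample labels give the treatment of the mock mice as none, and day 4 is named by its labels while the design text lists the other days. Each time had 1 library from a pool of more than 3 mice, so no difference between times has a replicate check, and no pair of times was tested.

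The respiratory chain passes electrons from NADH (complex I) and succinate (complex II) through complex III and the soluble carrier cytochrome c to oxygen at complex IV. Complexes I, III and IV pump protons, and complex V, the ATP synthase, uses the gradient to make ATP. Most subunits are encoded in the nucleus and imported, while a few core subunits of complexes I, III, IV and V are transcribed inside the organelle from long polycistronic RNAs, so that each complex other than II needs both genomes. In macrophages, oxidative phosphorylation is known to be prominent in alternatively activated cells, whereas inflammatory stimuli shift the cells towards glycolysis.

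Values are the authors' deposited normalised signal, which proved to be whole read counts times 1 factor per library. Libraries held between 14853084 and 25726455 reads, and 1 of the 22 names found on more than 1 row, Itgam, belonged to a list used here and was read from its row of highest signal. The sort genes were present in all 6 libraries, with Ptprc (CD45) between 7282 and 12626 units, Adgre1 (F4/80) between 9671 and 23702, and Itgam (CD11b) between 678 and 2627. Markers of other cells differed between libraries. The summed level of 18 acinar genes was 810988 in mock and 75530, 164903, 53462, 40485 and 936776 on days 1, 3, 4, 5 and 7. The sum of 6 monocyte genes was 33435 in mock and 129232, 35441, 19635, 17225 and 19163 on those days, and day 1 stood above the rest. The sum of 10 macrophage genes was 875687 in mock and 538301, 942208, 1526700, 1159373 and 530170 on the 5 days, and Lyz2 made up 76.6% of it in mock, 66.5% on day 1, and the larger part of it in every library. Without Lyz2 the sum was 204877 in mock and 180084, 200486, 285488, 429913 and 212202, and single genes differed in direction, as Fcgr1 had 29526 units and Csf1r 11450 on day 1, against 5610 and 23532 in mock. Fibroblast and duct genes were high on day 3, when the nuclear genes of the chain were highest. Their sums were 4251 and 595 in mock, and those of 9 fibroblast genes were 747, 22219, 1250, 2705 and 10106 on days 1, 3, 4, 5 and 7. The 7 duct genes summed to 1117, 3624, 602, 204 and 1158 on those days. Lymphocyte genes had sums of 5602 for B cells, 1624 for T cells and 3388 for NK cells in mock. On days 1, 3, 4, 5 and 7 the B cell sum was 1714, 676, 1027, 1199 and 4720. The T cell sum was 342, 256, 647, 913 and 1977, and the NK cell sum 3665, 270, 617, 3345 and 6811. Each of these sums was lowest on day 3. No marker of these lists was at 0 in any library. Sums over the 6 libraries ran between 526 and 11227 for 8 neutrophil genes, 809 and 6960 for 5 dendritic cell genes, 237 and 1551 for 6 endothelial genes, 36.4 and 3612 for 6 erythroid genes and 24.6 and 737 for 4 islet genes, and 1 erythroid gene was at 0 on days 1, 4 and 5 and 1 islet gene on day 1. Their part in the results below was not tested, and in such bulk libraries fewer cells of a type and less RNA per cell cannot be told apart.

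Expressed genes were the 10000 with the largest 6-library mean signal, down to 74.1 units. Of the members, 85 nuclear and 10 mitochondrial genes passed. The 10 that did not were mt-Nd3, mt-Nd4l, Ndufb2, Ndufa4l2, Cox4i2, Cox6a2, Cox6b2, Cox7a1, Cox7b2 and Cox8c. A member passes this filter through its mean, so one that is high at a single time can enter by that time alone.

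The nuclear genes of the chain were higher than mock on days 1, 3 and 4 and lower on days 5 and 7, although the day 4 median was 0.00083 when libraries were scaled without genes of other cells. Their median log2 ratio to mock was 0.54, 0.78, 0.25, -0.25 and -0.77 on days 1, 3, 4, 5 and 7, against 0.15, 0.08, -0.01, 0.12 and -0.11 for all expressed genes. On day 3 all 85 had a ratio above 0, and on day 7 the ratio was below 0 for 84 of them. Of the 10000 expressed genes, 5670 were above 0 on day 3 and 5760 below 0 on day 7. The day 3 library held the highest value of 66 nuclear genes and day 1 that of 16, while day 7 held the lowest value of 84. The library of the highest and lowest value was not counted over all expressed genes. The ratios also lay close together. Their SD across the 85 genes was 0.34, 0.26, 0.30, 0.25 and 0.27 on the 5 days, where that of all expressed genes was 0.86, 0.71, 0.74, 0.73 and 0.60. All expressed genes include markers of other cells and genes down to 74.1 units, and no set matched to the members by level was compared.

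Counted at 1.5-fold, 33 of the 85 nuclear genes were higher on day 1 than in mock and 0 lower, where 20.8% of all expressed genes were higher and 16.4% lower. On day 3, 57 were higher and 0 lower, with 13.3% and 11.0% of all genes. On day 4, 14 were higher and 0 lower, with 10.1% and 15.4% of all genes. That share of members on day 4 was near the background. On day 5, 1 was higher and 5 lower, with 13.4% and 11.2% of all genes, no more than the background. On day 7, 0 were higher and 64 lower, with 9.32% and 21.4% of all genes. Scaling each library to its total reads left 7 higher on day 1 and 31 lower on day 7, so these counts depend on the scaling, and the 5 lower on day 5 became 15, or 26 when scaled without genes of other cells. Shares of all genes were not computed under these scalings. The day 3 count of 57 moved by less than 1.5 times under each scaling tried. Between successive times the nuclear median was 0.26 for day 3 against day 1, -0.46 for day 4 against day 3, -0.56 for day 5 against day 4 and -0.55 for day 7 against day 5, with medians of all expressed genes at -0.08, -0.08, 0.12 and -0.25. The last of these steps was -0.15 when libraries were scaled to total reads.

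**Figure D1:**
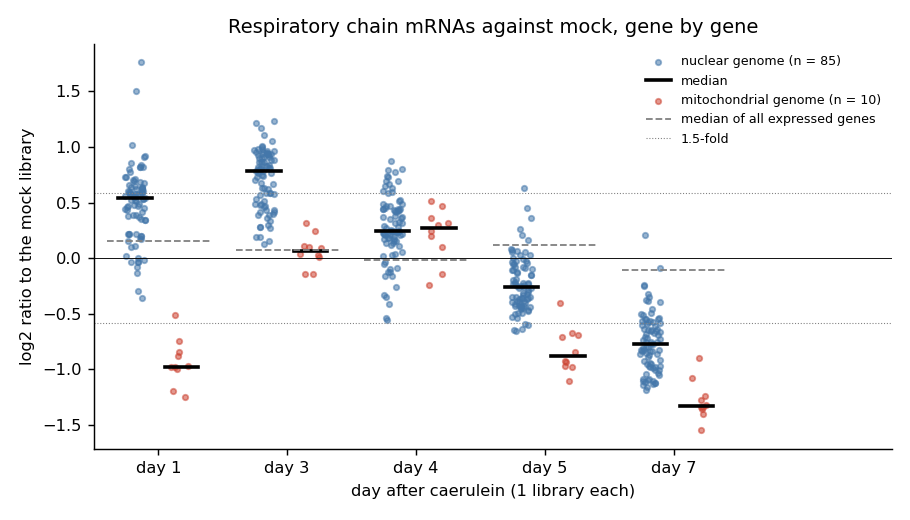
Log2 ratio of each expressed respiratory chain gene to the mock library on days 1, 3, 4, 5 and 7 (1 library each), with 85 nuclear genes in blue, 10 mitochondrial genes in red and black bars at the medians. The dashed line is the median of all expressed genes and the dotted lines mark 1.5-fold. Nuclear medians run from 0.54 on day 1 to -0.77 on day 7, and the mitochondrial medians sit lower on days 1, 3, 5 and 7.

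The mRNAs of the mitochondrial genome followed another course. Their median log2 ratio to mock was -0.98, 0.07, 0.27, -0.88 and -1.33 on days 1, 3, 4, 5 and 7, and the day 3 value was -0.039 when libraries were scaled to total reads. At 1.5-fold, 9 of 10 were lower on day 1, 9 on day 5 and 10 on day 7, and 0 were higher on any day, against the shares of all genes given above. The nuclear median exceeded the mitochondrial one by 1.51, 0.72, -0.02, 0.63 and 0.56 on the 5 days. Day 1 thus combined higher nuclear and lower mitochondrial values within the same library, and a common scaling factor shifts both medians alike. In reads, mitochondrial mRNAs made up 0.258% of the mock library and 0.117%, 0.272%, 0.290%, 0.141% and 0.132% on days 1, 3, 4, 5 and 7. On day 1 the 95% Clopper-Pearson interval ran between 0.115% and 0.118%, and in mock between 0.256% and 0.261%, which covers counting error only. Nuclear genes of the chain took 0.762% in mock and 0.850%, 1.07%, 0.707%, 0.572% and 0.548% on those days. The nuclear reads were 2.95 times the mitochondrial ones in mock and 7.29, 3.93, 2.44, 4.07 and 4.15 times on days 1, 3, 4, 5 and 7. As 7 of the 12 mitochondrial mRNAs have near-identical nuclear copies (below), these shares and ratios also depend on how shared reads were counted. They cannot be read as proportions of RNA.

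mt-Cytb, which encodes the cytochrome b core of complex III, had 13233 units in mock and 5558, 16435, 16261, 6911 and 5212 on days 1, 3, 4, 5 and 7. Days 1, 5 and 7 were low and days 3 and 4 slightly above mock, and its day 1 log2 ratio of -1.25 (95% counting interval -1.30 to -1.20) was the lowest of the 10. mt-Co1, the catalytic subunit of complex IV, had 14439 units in mock and 10116, 15416, 20612, 10881 and 6819 on the same days. It had the smallest day 1 difference, at -0.51 (counting interval -0.55 to -0.47), and its highest value on day 4. mt-Nd1, a membrane-arm subunit of complex I, had 7939 units in mock and 3461, 9393, 9413, 4178 and 3128 on days 1, 3, 4, 5 and 7. The day 1 value was below that of day 5. The other membrane-arm subunits mt-Nd2, mt-Nd4 and mt-Nd5 had day 1 ratios of -0.97, -0.98 and -0.84 and day 7 ratios of -1.32, -1.36 and -1.27. mt-Nd6, the mRNA transcribed from the opposite strand of the circle to the others, had 333 units in mock and 174, 343, 432, 146 and 102 on the 5 days. Its day 7 ratio of -1.55 was the lowest of the 10.

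mt-Co2 and mt-Co3, further core subunits of complex IV, had day 1 ratios of -0.75 and -0.98 and day 7 ratios of -0.90 and -1.40. mt-Atp6, the proton channel subunit of complex V, had 359 units in mock and 171, 324, 301, 192 and 142 on days 1, 3, 4, 5 and 7. It was the 1 mitochondrial mRNA with its highest value in mock. mt-Nd3 and mt-Nd4l reached at most 1.41 and 2.11 units in any library, that is, at most 3 reads. Near-identical copies in other genes cover 99.1% and 99.0% of their length (Gm28438, averaging 28.8 units, and Gm10222, 1.34). The low counts therefore cannot be read as the levels of these 2 mRNAs. The highest value lay on day 4 for 7 of the 10 and on day 3 for mt-Cytb and mt-Co3, and day 7 held the lowest value of all 10.

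The levels of several of these mRNAs are uncertain because of nuclear copies. Searched against mouse transcripts, 7 of the 12 mitochondrial mRNAs shared at least 50% of their length at 97% identity or more with another gene, and the sources used here do not say how reads of such copies were counted. The copy of mt-Atp6, Gm10925, averaged 322 units over the 6 libraries, that of mt-Co3, Gm28437, 319 units, and that of mt-Co2, Gm28661, 99.3 units. The remaining mRNAs mt-Cytb, mt-Nd1, mt-Nd2, mt-Nd5 and mt-Nd6 shared none, and their median ratio was -0.97, 0.10, 0.30, -0.97 and -1.34 on the 5 days, a set chosen after seeing the data. They do not say either whether counting used strand, so reads of mt-Nd6 and of the opposite strand cannot be told apart. The ribosomal RNAs of the same genome, which are not members, had day 1 ratios of -0.35 (mt-Rnr2) and 0.01 (mt-Rnr1), and day 7 ratios of -1.09 and -1.12.

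**Figure D2:**
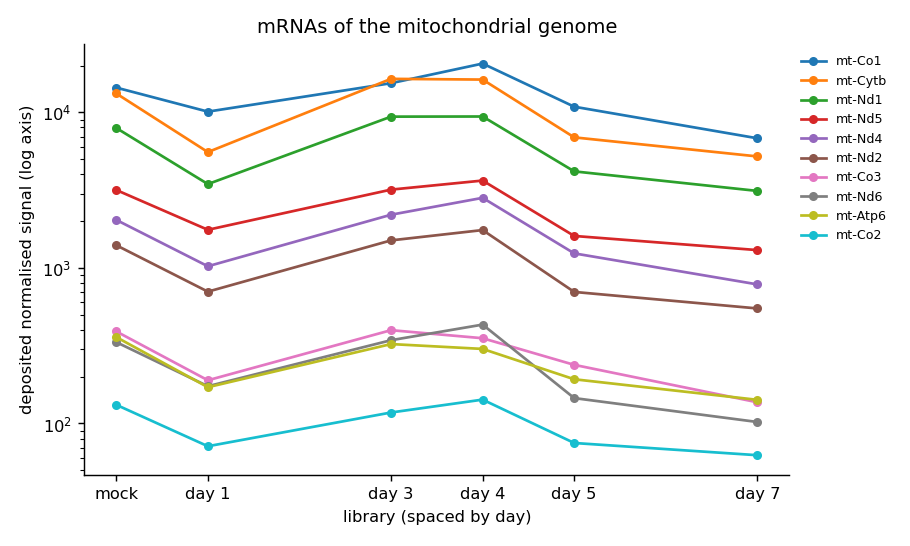
Deposited normalised signal (log axis) of the 10 expressed mitochondrial mRNAs in the mock library and on days 1, 3, 4, 5 and 7, 1 library each. All 10 lines are lower on day 1 than in mock, lie between -0.24 and 0.51 of mock on the log2 scale on day 4 and reach their lowest point on day 7.

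Complex I was followed through its catalytic core, its accessory subunits and the assembly factors that carry an Nduf name. The 7 nuclear core genes had medians of 0.39, 0.58, 0.13, -0.18 and -0.73 on days 1, 3, 4, 5 and 7, and the 28 accessory genes 0.59, 0.82, 0.37, -0.23 and -0.80. Of the accessory genes, 24 were at least 1.5-fold higher on day 3 and 22 at least 1.5-fold lower on day 7, against 13.3% and 21.4% of all genes. Of the 7 core genes, 1 (14.3%) was at least 1.5-fold higher on day 3, and 5 (71.4%) were lower on day 7. The day 3 count turns on the cut, as the core median of 0.580 lay just under the 1.5-fold limit of 0.585. All 7 core genes were above mock on day 3, against 5670 of all 10000 expressed genes. Ndufv1, which binds the flavin that accepts electrons from NADH, had 1719 units in mock and 1674, 1914, 1177, 1307 and 1072 on days 1, 3, 4, 5 and 7, and was the lowest core gene on days 1, 3, 4 and 5 by its ratios of -0.04, 0.15, -0.54 and -0.39. Ndufs8, an iron-sulphur subunit, was the highest core gene on days 1 and 3 with 0.73 and 0.59, and its day 7 ratio was -0.83. Ndufs1, the largest subunit, had 792 units on day 7, against 938 in mock, the smallest day 7 difference of the core at -0.24 (counting interval -0.37 to -0.11).

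Among the accessory genes Ndufab1, the mitochondrial acyl carrier protein, had 160 units in mock and 343, 285, 223, 226 and 125 on days 1, 3, 4, 5 and 7. Its day 1 ratio of 1.02 was the highest of the accessory genes and its day 5 ratio of 0.45 was also above theirs. Ndufa12 had 413 units in mock and 789, 950, 503, 267 and 202 on the same days, with the highest day 3 ratio of the accessory genes (1.17) and the lowest on day 5 (-0.59). Ndufa9 was the lowest on days 4 and 7, at -0.13 and -1.13, Ndufb11 on day 1 at -0.03, and Ndufv3 on day 3 at 0.39. Ndufb7 was the highest on day 4, at 0.80.

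The 7 Nduf-named assembly factors, which build complex I without staying in it, had medians of 0.46, 0.49, 0.15, -0.02 and -0.56. Only 2 (28.6%) were at least 1.5-fold higher on day 3 and 2 (28.6%) lower on day 7, against 13.3% and 21.4% of all genes. Ndufaf3 had 258 units in mock and 765, 467, 430, 337 and 192 on days 1, 3, 4, 5 and 7. Day 1 stood well above the rest, at a log2 ratio of 1.51 (counting interval 1.36 to 1.78), the second largest of the nuclear genes on that day. Ndufaf7, a protein methyltransferase, was the lowest of them on day 1 at -0.03, Ndufaf4 the lowest on day 3 at 0.19, and Ndufaf5 the lowest on days 4 and 7 at -0.35 and -0.99. Ndufaf2 had the highest day 3 ratio of the group, 0.95, on 66.8 units in mock.

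Complex II, which is wholly nuclear, had medians of 0.34, 0.50, 0.09, 0.01 and -0.72 over its 4 genes. At 1.5-fold, 1 of the 4 was higher on day 3 and 3 were lower on day 7, against 13.3% and 21.4% of all genes. Sdha, the flavoprotein that oxidises succinate, had 3821 units in mock and 3485, 5034, 3427, 4013 and 3002 on days 1, 3, 4, 5 and 7. Sdhb, the iron-sulphur subunit beside it in the enzyme, had 4156 units in mock and 6196, 6421, 4825, 3535 and 2059. Sdha stayed nearer to mock than Sdhb at each time, with day 7 ratios of -0.35 and -1.01. Sdhc, a membrane anchor, was the highest of the 4 on day 1 at 0.59.

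Complex III had 9 expressed nuclear genes with medians of 0.37, 0.73, 0.18, -0.29 and -0.75. At 1.5-fold, 5 of the 9 were higher on day 3 and 7 lower on day 7, against 13.3% and 21.4% of all genes. Uqcr11, a small subunit, had 369 units in mock and 518, 882, 656, 307 and 228 on days 1, 3, 4, 5 and 7. Its day 3 ratio of 1.22 (counting interval 1.09 to 1.43) was the highest of the complex. Uqcrc1, a large core protein, had 5204 units in mock and 6712, 6279, 4648, 4423 and 4011, with day 3 and day 7 ratios of 0.27 and -0.37. Uqcrfs1, the Rieske iron-sulphur protein, was lowest on day 5 at -0.65, and Uqcrb on day 7 at -1.11. Uqcrq was highest on day 1, at 0.80, and Uqcrh lowest, at 0.18. Cyc1, cytochrome c1, had ratios of 0.71, 0.46, -0.26, -0.0038 and -0.55.

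In complex IV all 12 expressed nuclear genes were at least 1.5-fold higher than mock on day 3, and 11 of 12 were at least 1.5-fold lower on day 7, where 13.3% and 21.4% of all genes were. Most of the 12 have transcripts under 1000 bases. Of other expressed genes that short, 42.0% were higher on day 3 and 58.9% lower on day 7 at the same fold. The medians of complex IV were 0.55, 0.87, 0.43, -0.30 and -0.86. Cox4i1, an early partner of mt-Co1 in assembly, had 4135 units in mock and 5593, 8074, 6858, 3901 and 2306 on days 1, 3, 4, 5 and 7. Ndufa4, named for complex I but now placed in complex IV, had 903 units in mock and 1375, 2146, 1383, 707 and 452, with the highest day 3 ratio of the chain, 1.23 (counting interval 1.14 to 1.35). Cox5b was highest on day 1, at 0.82, and Cox7b lowest on days 5 and 7, at -0.66 and -1.08. Cox7a2l departed from the others. It had 1160 units in mock and 941, 1809, 2144, 1341 and 841 on days 1, 3, 4, 5 and 7. It was below mock on day 1 at -0.30 (counting interval -0.43 to -0.17) and peaked on day 4 at 0.88 (counting interval 0.78 to 0.99), where most nuclear genes peaked on day 3.

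Several complex IV subunits have muscle, lung or testis isoforms, and these were low throughout. Cox6a2, the heart and muscle form of Cox6a1, had 20.1 units in mock and 34.5, 62.7, 73.8, 89.4 and 16.0 on days 1, 3, 4, 5 and 7, while Cox6a1 had 2187 in mock and 3177, 3735, 2577, 1712 and 1215. Cox6a2 was highest on day 5, when Cox6a1 was below mock, and its day 5 value was 2.84-fold that of mock on the scale with the pseudocount. Cox7a1, the muscle form of Cox7a2, reached 32.0 units on day 1 against 7.64 in mock. Cox4i2, the lung form, had 1.69 units on day 7, against 10.5 in mock. Cox6b2, the testis form of Cox6b1, lay between 9.85 and 42.7 units. Cox7b2, Cox8c and AA467197, the last a paralog of Ndufa4, did not exceed 6.15, 3.12 and 3.69 units, and Ndufa4l2, a hypoxia-inducible paralog of Ndufa4, did not exceed 12.4.

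Complex V had 15 expressed nuclear genes with medians of 0.53, 0.88, 0.24, -0.41 and -0.82, of which 12 were at least 1.5-fold higher on day 3 and 13 at least 1.5-fold lower on day 7, against the same 13.3% and 21.4%. Atp5b, the catalytic beta subunit, had 17463 units in mock and 20001, 21540, 11839, 13337 and 10794 on days 1, 3, 4, 5 and 7. Its day 4 ratio of -0.56 (counting interval -0.60 to -0.52) was the lowest of the complex. On that day 13 of the 15 were above mock, against 4893 of all 10000 expressed genes. Among the 3 genes that encode the same rotor-ring subunit c with different import signals, Atp5g1 had 1050 units in mock and 1704, 1846, 1064, 667 and 660. Atp5g2 had 596 units in mock and 564, 1112, 752, 551 and 346. Atp5g3 had 2716 units in mock and 3687, 5122, 3189, 1785 and 1209. Only Atp5g2 of the 3 was not above mock on day 1, at -0.08 against 0.69 and 0.44. Atp5l, a membrane subunit, had the highest day 3 ratio, 1.11, and Atp5k, a small subunit of the dimer interface, the highest on days 4 and 5, 0.66 and 0.03.

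Atp5s and Atp5sl share the name but are not subunits of the enzyme. Atp5sl, an assembly factor of complex I in human cells, had 466 units in mock and 359, 570, 559, 732 and 540 on days 1, 3, 4, 5 and 7. It was the 1 nuclear gene at least 1.5-fold higher on day 5, at 0.63 (counting interval 0.48 to 0.82), and the 1 with a day 7 ratio above 0, at 0.20. Atp5s, at 74.5 units in mock, had ratios of 0.22, 0.42, 0.53, 0.26 and -0.08.

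**Figure D3:**
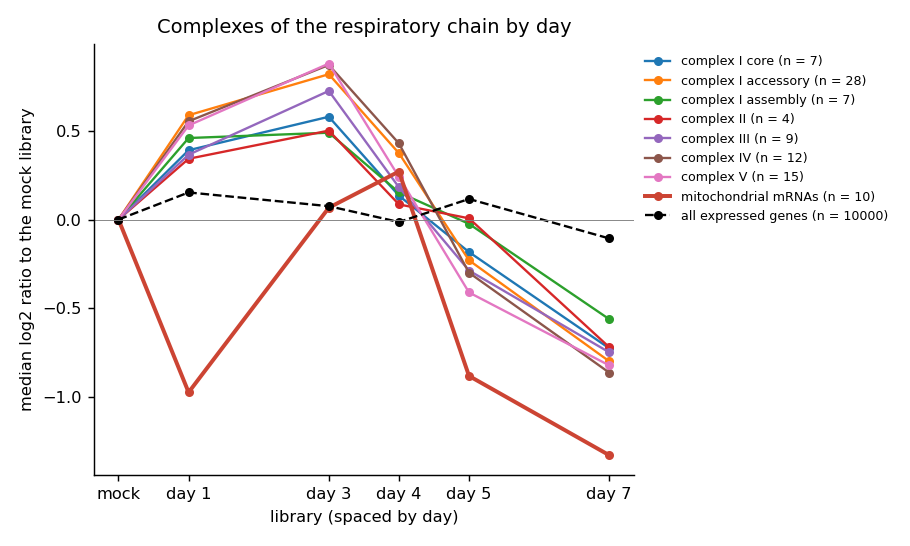
Median log2 ratio to the mock library over the expressed nuclear genes of each complex, the 10 mitochondrial mRNAs (thick red line) and all expressed genes (dashed), by day, with mock at 0. The nuclear complexes run together with a peak on day 3 (0.49 to 0.88) and their lowest point on day 7, while the mitochondrial line is at -0.98 on day 1.

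Cytochrome c itself had the largest day 1 ratio of all members. Cycs, whose product carries electrons from complex III to complex IV and triggers caspase activation when released into the cytosol, had 1293 units in mock and 4427, 1411, 968, 964 and 559 on days 1, 3, 4, 5 and 7. The day 1 library stood alone, at a log2 ratio of 1.76 (3.39-fold, counting interval 1.68 to 1.87), and days 4, 5 and 7 were below mock. Day 3 against day 1 was -1.64, where the nuclear median was 0.26. Part of its transcript, 33.7%, is shared with other genes, of which the closest, Gm10053, averaged 56.5 units. Letters of both the NRF1 (nuclear respiratory factor 1) and CRE (cyclic AMP response element) motifs were found near the start of Cycs and of Ndufa11. The day 1 ratio of Ndufa11 was 0.60, near the nuclear median of 0.54, and a part of the motifs in the ratios was not tested. The Cycs promoter is shown because the gene stood apart and because its upstream sequence has both, in capitals. The 200 bases before the start (chr6:50566570-50566769, minus strand, GRCm38.p6, RefSeq) hold TGACGTCA from base -169 and CGCATGCGC from base -61.
Cycs: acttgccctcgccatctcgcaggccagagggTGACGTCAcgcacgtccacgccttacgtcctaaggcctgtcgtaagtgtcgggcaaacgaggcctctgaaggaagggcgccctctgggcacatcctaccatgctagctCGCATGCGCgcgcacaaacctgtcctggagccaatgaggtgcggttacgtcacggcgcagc

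**Figure D4:**
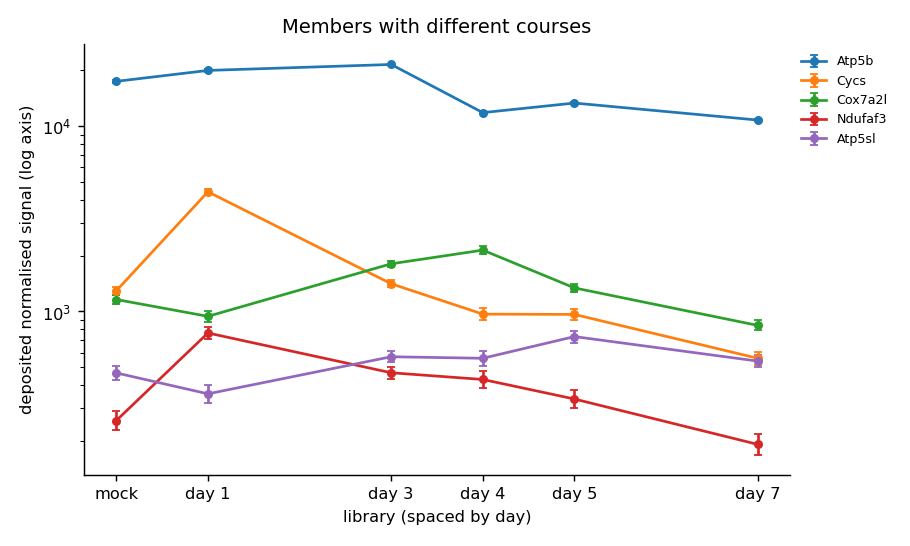
Deposited normalised signal (log axis) of Atp5b, Cycs, Cox7a2l, Ndufaf3 and Atp5sl in the mock library and on days 1, 3, 4, 5 and 7, with 95% Poisson counting intervals. Cycs and Ndufaf3 are highest on day 1, Atp5b on day 3, Cox7a2l on day 4 and Atp5sl on day 5.

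NRF1 is a transcription factor known for binding the promoters of many nuclear respiratory genes. RefSeq windows of 250 bases before to 50 after the start (GRCm38.p6) were found for 76 of the 93 nuclear members and searched on both strands. CGCNTGCGC (NRF1) was present in 23 of 76, or 30.3%, against 7.03% of the windows of 27025 genes. AAGATGGCG (YY1) was present in 8, or 10.5% against 1.64%, CCGGAAGT (ETS factors, which include GABP) in 5, or 6.58% against 4.31%, and TGACGTCA (CRE) in 5, or 6.58% against 2.03%. At least 1 of the first 3 motifs was in 43.4% of the members and in 11.9% of all genes. These motifs were chosen for their known link to such genes. The 27025 genes were not limited to those expressed here, as most members are, and shares among expressed genes were not computed. Expressed members with the NRF1 letters had medians of 0.48, 0.83, 0.24, -0.31 and -0.77 on days 1, 3, 4, 5 and 7 (n = 23). Those without had 0.56, 0.80, 0.27, -0.27 and -0.80 (n = 49). With the ETS letters the medians on those days were 0.47, 0.86, 0.47, -0.25 and -0.75 (n = 5), against 0.55, 0.80, 0.25, -0.29 and -0.80 without (n = 67). With the YY1 letters they were 0.60, 0.84, 0.34, -0.44 and -1.001 (n = 8), against 0.54, 0.80, 0.26, -0.25 and -0.76 (n = 64). With the CRE letters they were 0.53, 0.43, -0.0074, -0.43 and -0.99 (n = 4), against 0.55, 0.81, 0.28, -0.25 and -0.76 (n = 68). The differences between the sets were not tested. The member with the highest mean signal and an NRF1 match before the start is shown for each class that had one, up to 20 bases either side and no further than the start, with the match in capitals. The windows are Ndufa8 (chr2:36049339-36049367, minus strand), which holds 2 matches, Ndufaf4 (chr4:24897951-24897999, plus strand), whose letters match on both strands 1 base apart, Sdhd (chr9:50603900-50603948, minus strand), Cox6a1 (chr5:115349047-115349095, minus strand) and Atp5c1 (chr2:10080433-10080469, minus strand).
Ndufa8: CGCTTGCGCgtcgctggagaCGCATGCGC
Ndufaf4: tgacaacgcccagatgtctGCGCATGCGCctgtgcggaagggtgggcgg
Sdhd: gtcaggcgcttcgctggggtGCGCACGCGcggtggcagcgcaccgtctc
Cox6a1: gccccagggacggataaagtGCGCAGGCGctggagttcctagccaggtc
Atp5c1: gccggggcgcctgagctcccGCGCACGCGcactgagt
A match is a run of letters and not a measured binding site.

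Transcript length moved with these ratios on some days, among the members mainly on days 3 and 4. The nuclear members were short, with a median transcript of 983 bases against 3052 for the other expressed genes, and 43 of 85 were under 1000 bases. The 43 members under 1000 bases had medians of 0.56, 0.90, 0.42, -0.29 and -0.80 on days 1, 3, 4, 5 and 7, against 0.35, 0.50, 0.28, -0.23 and -0.68 for the 545 other expressed genes under 1000 bases. Of those other short genes, 42.0% were at least 1.5-fold higher on day 3 and 58.9% at least 1.5-fold lower on day 7. Between 1000 and 2000 bases the 30 members had 0.54 on day 3 and -0.80 on day 7, against 0.26 and -0.47 for 2071 other genes. Across the 85 members, which share each library, Spearman's rho between ratio and length was -0.18, -0.70, -0.64, 0.10 and 0.13 on the 5 days, and across 9896 other genes it was -0.11, -0.26, -0.08, 0.18 and 0.43, with genes as points and not replicates. The classes described above also differ in length, as in Cox4i1 of complex IV with 765 bases and Ndufs1 of the complex I core with 2661. Their counts were set beside genes of all lengths. The part of length in the results, and in the differences between classes, was not tested.

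**Figure D5:**
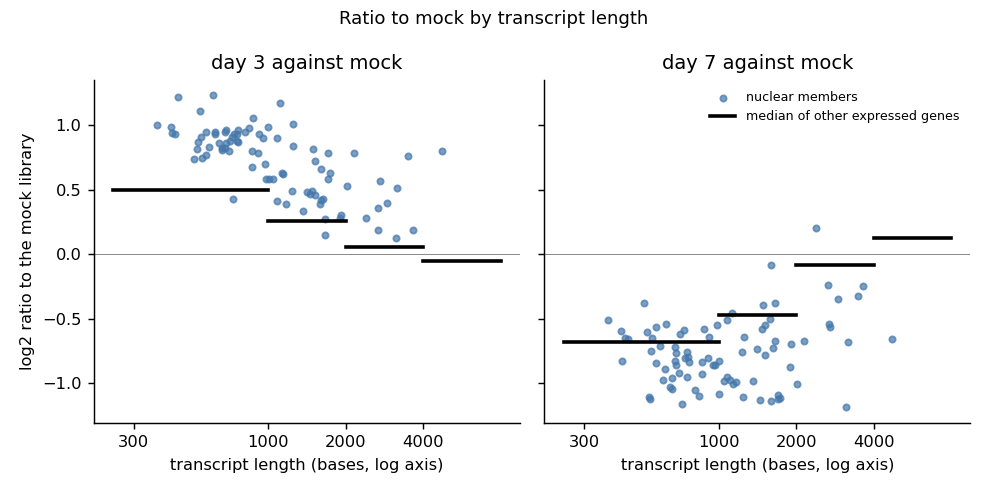
Log2 ratio to the mock library against transcript length (log axis) for the 85 expressed nuclear members on day 3 (left) and day 7 (right). Black lines give the median of the other expressed genes under 1000, 1000 to 2000, 2000 to 4000 and over 4000 bases, and the members sit mostly above those lines on day 3 and mostly below them on day 7.

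Other genes of the pathway came from lists of known factors. The 26 expressed assembly factors of complexes II to V had medians of 0.65, 0.42, 0.29, 0.15 and -0.36 on days 1, 3, 4, 5 and 7, with 15 at least 1.5-fold higher on day 1 and 7 on day 3, where 20.8% and 13.3% of all expressed genes were. On day 7, 6 of the 26 were at least 1.5-fold lower, near the 21.4% of all genes. Cox18, which inserts mt-Co2 into the membrane, had 356 units in mock and 975, 339, 263, 374 and 236 on the 5 days. Like Cycs it was high on day 1 alone, at 1.41. Coa7 and Coa5, further complex IV factors, had day 1 ratios of 1.21 and 0.96, and Sdhaf4, which protects free Sdha, had its highest ratio on day 3 at 1.03. The 6 expressed complex I factors without an Nduf name had medians of 0.38, -0.07, 0.07, 0.38 and -0.02. Tmem126b, needed for the membrane arm, was at 0.63 on day 1, and Nubpl, which delivers iron-sulphur clusters, at -0.59.

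The 18 expressed genes that copy, transcribe or process the mitochondrial genome had medians of 0.44, 0.07, 0.16, 0.32 and -0.12 on days 1, 3, 4, 5 and 7. On day 1, 8 of them were higher by 1.5-fold or more and 2 lower by as much, with 20.8% and 16.4% of all genes. Polrmt, the mitochondrial RNA polymerase, had 175 units in mock and 178, 194, 113, 254 and 372 on days 1, 3, 4, 5 and 7. It was highest on day 7, at 1.02. Tfam, which packages the genome and starts transcription, had 406 units in mock and 420, 391, 452, 369 and 285. Pnpt1, a polynucleotide phosphorylase that degrades mitochondrial RNA, had 604 units in mock and 1332, 485, 408, 944 and 413. It was high on days 1 and 5, at 1.12 and 0.63. Polg2, the accessory subunit of the DNA polymerase, was at -0.92 on day 1, and Tfb2m, the transcription factor that melts the promoter, at -0.63.

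The 11 expressed regulators of nuclear respiratory genes had medians of 0.05, -0.05, -0.13, 0.19 and 0.06, near those of all genes. Pprc1, a coactivator of the PGC-1 family, had 254 units in mock and 412, 127, 140, 307 and 462 on days 1, 3, 4, 5 and 7, with days 3 and 4 below the other 4 libraries. Ppargc1b, its relative, had 98.4 units in mock and 43.1, 66.2, 107, 114 and 170. Myc, which drives growth and mitochondrial biogenesis genes, had 2188 units in mock and 971, 1011, 631, 1041 and 1756, below mock on all 5 days. Esrra, an oestrogen-related receptor of oxidative genes, had ratios of 0.72, 0.16, -0.07, 0.55 and 0.54.

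As whole reads could be recovered, count tests across all genes were also made, with libraries of different days taken as replicates, so that p-values measure the spread between days. edgeR called 0 of 14106 genes (0.0%) for the 5 caerulein libraries against mock, with 102 at an unadjusted p below 0.05, and 0 genes (0.0%) for a linear trend over day, with 806. DESeq2 called 2 and 20 genes, and 0 of the 99 members tested in either comparison. At an unadjusted p below 0.05, edgeR gave a trend for 5 of the 99 members, a share near that of all genes, and 0 against mock. DESeq2 gave 18 of the 99 and 1064 of all 14106 genes for the trend at that limit, a larger share of the members than of all genes. Cycs had the smallest p of the members, with a slope of -0.34 on the log2 scale per day and an adjusted p of 0.726 in edgeR over all genes. The lowest values in this trend were those of day 7, and 1 library at each time does not separate day from library.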

How the data were processed

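RNA-seq values for 31617 genes in 6 libraries, 1 per time, were analysed, and sample titles gave the groups. The authors deposited a normalised signal for each gene. According to the submitters' processing notes, which state no roles, Bowtie 0.12.2 and the build mm8 were used. Neither the counting tool nor its annotation is given there. In each library 100% of the values were whole multiples of 1 step within 0.01 of a read, which gave back the reads and 3 reads as a floor worth 2.11 to 3.88 units. The mock library had 17598031 reads, day 1 16200131, day 3 25726455, day 4 14853084, day 5 17905449 and day 7 16358551. Without molecular identifiers, reads can be copies of 1 molecule, so intervals cover counting error only.

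Log2 ratios were taken on value plus a pseudocount of 17.8 units, which understates the ratios of low genes. Intervals are 95% Clopper-Pearson intervals of the ratio of reads, without the pseudocount. Members and lists were chosen with earlier results of these data known. Named genes are each mitochondrial member, the highest and lowest member of each class on each day and the one with the highest mean signal, tissue isoforms with their counterparts, up to 2 highest and 2 lowest genes of each other list per day, and the genes of the sort. Atp5s and Atp5sl, which belong to no class, were added after their values were seen, as were the ribosomal RNAs, the nuclear copies and the promoters shown. Part of the genes so chosen are left undescribed.

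Transcript lengths and copies used the longest protein-coding GENCODE transcript and BLAST 2.17.0 (matches of at least 75 bases at 97% identity). Count tests in R 4.3.3 used the quasi-likelihood test of edgeR 4.0.16, with DESeq2 1.42.0 as an alternative and Benjamini-Hochberg adjustment, on genes with at least 60 reads in all, and were tested on simulated data. Intervals and correlations came from scipy 1.17.1, tables from pandas 2.3.3 and plots from matplotlib 3.10.9, under Python 3.11.15. Alternatives changed the scaling, pseudocount, filter, summary, fold and reference.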

Additional observations from a re-analysis of the deposited data

How the results depend on the processing

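Of the alternatives tried, none turned a median that was past 1.5-fold to the other side of 0, and a pseudocount 10 times smaller left each median and count within its limits. Scaling to total reads moved 19 of 38 medians and counts and scaling without genes of other cells 22, and both moved the median of all genes to -0.20 on day 4 and 0.16 on day 7 (total reads) or -0.26 and 0.19 (without genes of other cells). The cause of the differences below was not tested. Shares of all genes past 1.5-fold were computed at the main setting only, so the counts at that fold below have no background beside them.

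Scaled to total reads, the nuclear median was 0.30, 0.066 and -0.50 on days 1, 4 and 7, 0.39 for day 3 against day 1 and -0.15 for day 7 against day 5. Nuclear genes at least 1.5-fold higher were 7, 3 and 0 on days 1, 4 and 5, and those lower 1, 3, 15 and 31 on days 1, 4, 5 and 7. Mitochondrial medians were -1.21, -0.039, 0.078, -1.03 and -1.05 on the 5 days, 1.09 for day 3 against day 1 and 0.0025 for day 7 against day 5. Scaled without genes of other cells, nuclear medians were 0.23, 0.62, 0.00083, -0.47 and -0.48, then 0.40 for day 3 against day 1 and -0.052 for day 7 against day 5. Higher genes numbered 5, 1 and 0 on days 1, 4 and 5, and lower ones 2, 4, 26 and 29 on days 1, 4, 5 and 7. Mitochondrial medians were -1.28, -0.095, 0.010, -1.10 and -1.03, then 1.10 for day 3 against day 1, 0.11 for day 4 against day 3 and 0.098 for day 7 against day 5. Centred on the median gene, 16 nuclear genes were higher on day 1, and on day 5 0 were higher and 10 lower. Nuclear medians were -0.73 for day 5 against day 4 and -0.36 for day 7 against day 5, and mitochondrial ones 0.32, -1.34 and -0.22 for day 4 against day 3, day 5 against day 4 and day 7 against day 5.

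Against the mean of the other 5 libraries, the nuclear median on day 7 was -1.04, with 1 gene lower on day 1, 4 higher on day 4, and 0 higher and 19 lower on day 5. Mitochondrial medians were -0.52, 0.64, 0.89, -0.43 and -1.02 on days 1, 3, 4, 5 and 7, with 4 lower on day 1, 7 higher on day 3, 8 higher on day 4 and 3 lower on day 5. At 2-fold, nuclear genes higher were 3, 7, 0 and 0 on days 1, 3, 4 and 5, and those lower 0 and 17 on days 5 and 7. Mitochondrial genes lower at 2-fold were 2 and 1 on days 1 and 5. Of all 10000 expressed genes, 668, 373, 331 and 368 were at least 2-fold higher on days 1, 3, 4 and 5. Those at least 2-fold lower were 958, 640 and 657 on days 1, 5 and 7. With 6000 expressed genes, 5, 5 and 6 mitochondrial genes were lower on days 1, 5 and 7, as fewer passed. With no filter, 1 nuclear gene was lower on day 1 and 2 higher on day 5, and the mitochondrial medians were 0.098 for day 4 against day 3 and -1.04 for day 5 against day 4, where the mean was -1.04. DESeq2 called 2 genes against mock and 20 for the trend, where edgeR called 0. No paired analysis was possible because there is 1 library per time.

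The main limit is that each time is 1 pooled library, so that animal, sort and library preparation cannot be told apart from the day. Counting error alone had a median interval half-width of 0.14 for nuclear and 0.13 for mitochondrial genes on day 1 against mock on the log2 scale.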

Other observations

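The 17 genes of the tricarboxylic acid cycle and pyruvate dehydrogenase had median log2 ratios to mock of 0.29, 0.27, -0.13, -0.15 and -0.52 on days 1, 3, 4, 5 and 7, with 2 at least 1.5-fold higher on day 1, where 20.8% of all expressed genes were, and 6 at least 1.5-fold lower on day 7, where 21.4% were. Mdh2, mitochondrial malate dehydrogenase, had 7031 units in mock and 12930, 8364, 4861, 4132 and 3890 on those days. It was highest on day 1, at 0.88, and below mock on days 4, 5 and 7. Ogdh, of the oxoglutarate dehydrogenase complex, had 2371 units on day 7, against 1875 in mock, a ratio of 0.34. Idh3g and Fh1 were lower on day 1, at -0.50 and -0.42, and Fh1 was the highest of the list on day 3, at 0.67.

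The 10 expressed carriers and dehydrogenases of the inner membrane had medians of 0.25, 0.29, -0.06, -0.18 and -0.50, with 5 at least 1.5-fold lower on day 7, where 21.4% of all genes were. Slc25a5, an ADP/ATP carrier of proliferating and many other cells, had 12946 units in mock and 15757, 13715, 10273, 11299 and 6327 on days 1, 3, 4, 5 and 7. Slc25a4, its muscle-type relative, had 1685 units in mock and 1089, 3296, 2244, 1422 and 1114. Both carriers thus differed on days 1 and 3, with Slc25a4 at -0.62 and 0.96 and Slc25a5 at 0.28 and 0.08. Ucp2, a carrier of the uncoupling protein family common in macrophages, had 26302 units in mock and 37930, 45280, 32731, 36713 and 24568, above mock on days 1, 3, 4 and 5. Gpd2, which feeds electrons from cytosolic glycerol phosphate, was at -0.58 on both days 3 and 4.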
